A study of Mus musculus with 12 samples.

Results

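The NR4A receptors are a family of 3 orphan nuclear receptors, *Nr4a1*, *Nr4a2* and *Nr4a3*, and their transcripts were followed in W-20 cells, a murine bone marrow stromal cell (BMSC) line labelled W-20-17. The genes were chosen by name: the 3 rows of the count matrix, of 56980 in all, whose Ensembl identifiers belong to these symbols. Bulk poly(A) RNA-Seq was available for 12 libraries, 3 in each of 4 groups. The first pair of groups came from unmodified (WT) cells exposed for 2 hours to vehicle (PBS) or to 50 nM parathyroid hormone (PTH). The other pair came from a line named Y428F, for a tyrosine-to-phenylalanine change in the transcriptional coactivator YAP, exposed to the same vehicle or to PTH at the same dose and time. The Y428F line was made by stable introduction of a plasmid that encodes the altered YAP, with puromycin selection of positive clones. Its genotype characteristic in the labels reads WT, whereas its library titles read Y428F, and the titles were used. The study's account of the RNA-Seq names the mutant line in places with a further serine-to-alanine change in YAP and in places by the tyrosine change alone, and the titles give only the latter. The line is called Y428F here after its titles, and it may carry both changes. No library from cells with introduced unaltered YAP was analysed here, so the amino acid change cannot be told apart from other differences between the lines. Library totals ran from 17127897 to 19057319 counts.

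NR4A proteins bind DNA like other nuclear receptors but need no known hormone to act, since the pocket that would hold a ligand is filled by side chains of the receptor itself. Their activity therefore depends largely on how much of them a cell makes, and the genes are classical immediate early genes, switched on within minutes to hours by cAMP, calcium and growth factor signals. PTH acts on osteoblast lineage cells through a receptor that raises cAMP and activates protein kinase A, and the kinase phosphorylates CREB, which binds cAMP response elements (CREs). In osteoblasts, PTH is a known inducer of the family. The proteins bind a response element called the NBRE as monomers, and the products of *Nr4a1* (Nur77) and *Nr4a2* (Nurr1), but not that of *Nr4a3* (NOR-1), also pair with the retinoid X receptors (RXRs).

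The promoter windows of the family are shown because members of the family moved with PTH, *Nr4a1* up and *Nr4a2* down in WT cells. The windows also share a feature that the choice of genes did not use. RefSeq windows of 300 bases, from 250 before to 50 after the start site (table build GRCm38.p6), were found for all 3 genes, and each matched GRCm39 exactly and at 1 place on its chromosome. Each window held 4 copies of the 5-letter CRE core CGTCA, read on either strand as CGTCA or TGACG. The windows lie at chr15:101164477-101164776 on the plus strand for *Nr4a1*, chr2:57013966-57014265 on the minus strand for *Nr4a2* and chr4:48045055-48045354 on the plus strand for *Nr4a3*. The stretches printed here, 5′ to 3′ with the CRE cores in capitals, lie outside every exon of the GENCODE vM39 annotation for *Nr4a1* (chr15:101164477-101164656) and *Nr4a3* (chr4:48045055-48045152). That of *Nr4a1* still lies inside the annotated gene, which begins upstream at chr15:101151980. For *Nr4a2*, whose window lies inside the first exon of longer transcripts, only the 30 bases around its closest pair of cores are shown (chr2:57014115-57014144).
*Nr4a1*: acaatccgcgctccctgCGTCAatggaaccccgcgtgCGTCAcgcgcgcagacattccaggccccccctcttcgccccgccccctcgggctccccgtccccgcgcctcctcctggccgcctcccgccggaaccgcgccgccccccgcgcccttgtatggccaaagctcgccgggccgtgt
*Nr4a2*: ccgggcTGACGgggccgcTGACGcgcttgg
*Nr4a3*: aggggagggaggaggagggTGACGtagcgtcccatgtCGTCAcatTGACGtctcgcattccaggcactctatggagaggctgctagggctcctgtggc

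The RefSeq start site lay 7 bases from the nearest start of a basic GENCODE transcript in *Nr4a1*, 173 in *Nr4a2* and 152 in *Nr4a3*. Offsets therefore depend on the start site used, mainly in *Nr4a2* and *Nr4a3*. Counted from the RefSeq start site, the cores began at -233, -213, -69 and -40 in *Nr4a1*. They began at -200, -144, -123 and -111 in *Nr4a2*, and at -231, -213, -205 and -147 in *Nr4a3*. The stretch of *Nr4a3* therefore carries 3 of its 4 cores within a few turns of the helix, and that of *Nr4a2* a tandem pair in the same direction. The remaining core of *Nr4a3*, at -147, lies inside the annotated gene, which begins at chr4:48045153. Among 32851 windows of the same length in the RefSeq table, 20.8% held at least 1 core and 0.231% held at least 4. The family's windows are rich in CpG, which the core contains, with 35, 52 and 26 CpG in *Nr4a1*, *Nr4a2* and *Nr4a3* against a median of 7 over all windows. Among the 5543 windows with at least 26 CpG, 0.92% held at least 4 cores. That limit is the count of *Nr4a3*, so the set admits windows with less CpG than those of *Nr4a1* and *Nr4a2*. Of the 40 other nuclear receptor genes with a window in the table, of 46 listed, 0 held 4 cores, and their median was 0. None of the 3 family windows held the full palindrome TGACGTCA (present in 1.79% of windows), the NBRE letters AAAGGTCA (1.51%, both strands) or a CArG box, the element that serum response factor binds (1.63%). The limits of 4 cores and 26 CpG equal the family's own core count and its lowest CpG count, so these shares are no test. These letter matches are a description of the windows and not evidence of a bound site. A link between the cores and the response to PTH was not tested.

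Other genes with such windows were called at shares not far from those of all genes. Of 57 other genes with at least 4 cores that were tested in WT cells, 6 (10.5%) were higher and 3 (5.26%) lower with PTH. Among all 10597 tested genes with a window, 7.9% were higher and 5.57% lower. In Y428F cells, 8.77% of these genes were higher and 5.26% lower, beside 7.85% and 6.83% of the 11501 with any window.

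*Nr4a1* (ENSMUSG00000023034, Nur77, GRCm39 chr15:101151980-101172681, plus strand) rose with PTH in both lines and was low in the Y428F line. In WT cells with vehicle its 3 libraries held 296, 288 and 282 counts, or 15.7, 16.4 and 15.1 CPM, read counts scaled to a common library size with TMM factors. With PTH the WT libraries held 460, 468 and 415 counts, or 27.1, 28.8 and 24.2 CPM. Every PTH library therefore stood well above every vehicle library, with means of 26.7 ± 2.34 and 15.7 ± 0.626 CPM (SD, n = 3). The rise was 1.70-fold, a log2 fold change of 0.77 ± 0.088 (SE) with an adjusted p of 8.38e-05 by the quasi-likelihood test of edgeR, adjusted by the Benjamini-Hochberg method for 15583 genes. In that comparison 11.8% of all tested genes passed an adjusted p of 0.05, with 6.88% higher and 4.91% lower with PTH. These shares depended on single libraries, since the 1837 genes called (1072 higher and 765 lower) became 905 (613 and 292) without PTH library 1, 1060 without PTH library 2, and 1132 and 1045 without vehicle libraries 2 and 3. With library totals in place of TMM the higher share of the genes called fell from 58.4% to 38%, while *Nr4a1* kept its call. Since the RNA is from bulk cultures, fewer cells with a transcript and less of it per cell cannot be told apart, here or in any later result. Nothing in the labels says that the libraries came from separate cultures. The study's statistics section gives at least 3 independent experiments for its data in general, without naming these libraries. The p-values therefore measure the spread between these libraries, which may be technical.

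In Y428F cells *Nr4a1* was low with vehicle, at 107, 138 and 135 counts or 5.86, 6.98 and 7.37 CPM. With PTH it reached 256, 260 and 231 counts, or 14.2, 14.6 and 12.7 CPM. The groups did not overlap, and the PTH libraries of the Y428F line came up only to just under the vehicle libraries of the WT line. The rise was 2.05-fold (95% interval 1.75 to 2.41), with a log2 fold change of 1.04 ± 0.11 and an adjusted p of 2.3e-06. In the Y428F line 12.4% of 17691 tested genes passed, 6.61% higher and 5.78% lower with PTH (2192 genes, and 1435 without Y428F vehicle library 1), and the higher share of the genes called fell from 53.4% to 38.1% with library totals. The response of *Nr4a1* differed between the lines by 0.27 ± 0.15 on the log2 scale (95% interval -0.03 to 0.58, adjusted p = 0.775). That test of the difference passed for 0.413% of genes (0.17% with the response higher in the Y428F line and 0.243% with it lower there), or 73 genes, a count that ran from 24 to 89 with a library left out and was 216 with no filter on low counts. By edgeR it passed for 0 of the 3 members, also at an unadjusted p of 0.05 (0.0774 for *Nr4a1*), and DESeq2's Wald test passed neither *Nr4a1* nor *Nr4a2*.

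*Nr4a1* was lower in the Y428F line than in WT cells whether or not PTH was present. With vehicle the difference was 2.33-fold (log2 -1.22 ± 0.11, adjusted p = 9.87e-09), and with PTH it was 1.93-fold (log2 -0.95 ± 0.098, adjusted p = 8e-08). Libraries of the lines did not overlap in either state. The background of this comparison was wide, since 45.1% of genes passed with vehicle (22.4% higher, 22.7% lower) and 45.7% with PTH (22.8% higher, 23% lower). As a signed log2 value, the vehicle difference of *Nr4a1* was among the lowest of its chromosome, with 22 of the 496 genes of chromosome 15 that had at least 1 CPM (4.4%) at or below it.

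**Figure D1:**
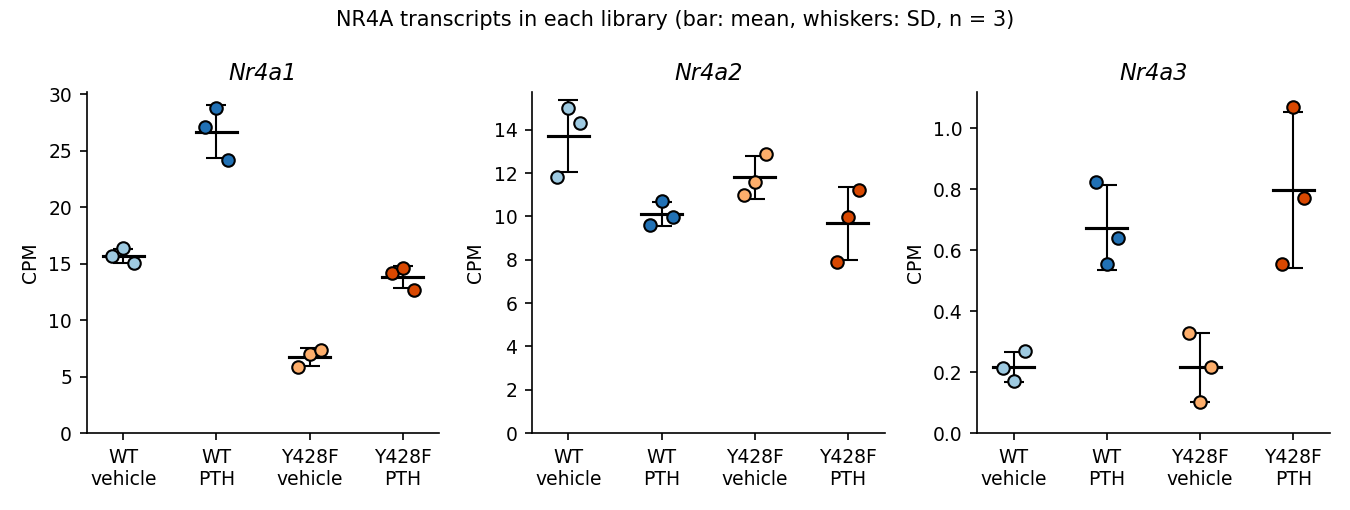
Level of each NR4A transcript in CPM (y axis, linear, from 0) in the 12 libraries, by group (x axis), where each point is a library, bars are means and whiskers the SD of 3 libraries. *Nr4a1* and *Nr4a3* sat higher with PTH in both lines, *Nr4a2* sat lower in WT cells, and *Nr4a1* with vehicle averaged 15.7 CPM in the WT line and 6.74 CPM in the Y428F line.

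*Nr4a2* (ENSMUSG00000026826, Nurr1, GRCm39 chr2:56996842-57014331, minus strand), the family member best known for its role in dopamine neurons, moved in the opposite direction. In WT cells with vehicle it had 224, 264 and 267 counts, or 11.8, 15.0 and 14.3 CPM. With PTH it had 163, 174 and 171 counts, or 9.61, 10.7 and 9.96 CPM. The highest PTH library lay below the lowest vehicle library, by a little over 1 CPM. The means were 13.7 ± 1.67 and 10.1 ± 0.558 CPM, a fall of 1.35-fold (log2 -0.44 ± 0.11, adjusted p = 0.0238). The call was kept without vehicle library 1 (log2 -0.52, adjusted p = 0.00721) but was lost without vehicle library 2 or 3 or any of the 3 PTH libraries (adjusted p between 0.0525 and 0.119), with a log2 fold change between -0.47 and -0.36.

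In Y428F cells *Nr4a2* had 11.0, 11.6 and 12.9 CPM with vehicle (200, 229 and 236 counts) and 7.88, 9.99 and 11.2 CPM with PTH (142, 178 and 203 counts). These groups overlapped, with PTH library 3 above vehicle library 1. The log2 fold change was -0.29 ± 0.13 and did not pass (adjusted p = 0.166). That one line passed and the other did not is not a difference between them, which was 0.16 ± 0.18 (95% interval -0.22 to 0.53, adjusted p = 0.92). Between the lines *Nr4a2* differed by -0.22 ± 0.12 with vehicle (adjusted p = 0.163) and by -0.06 ± 0.13 with PTH (adjusted p = 0.751). The intervals of these line differences, -0.47 to 0.04 and -0.33 to 0.21, lay wholly above the -1.45 to -0.99 measured for *Nr4a1* with vehicle and the -1.15 to -0.74 measured with PTH.

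*Nr4a3* (ENSMUSG00000028341, NOR-1, GRCm39 chr4:48045153-48086447, plus strand) was close to the limit of detection. WT libraries held 4, 3 and 5 counts with vehicle and 14, 9 and 11 with PTH. Y428F libraries held 6, 2 and 4 counts with vehicle and 10, 19 and 14 with PTH. In both lines the lowest PTH library stood above the highest vehicle library, and the lines overlapped within each treatment. In CPM, the WT means were 0.217 ± 0.0491 with vehicle and 0.673 ± 0.139 with PTH, and those of Y428F cells were 0.216 ± 0.114 and 0.797 ± 0.257.

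Summed over 3 libraries, WT cells gave 12 *Nr4a3* counts with vehicle and 34 with PTH, a ratio of 3.1 after scaling (exact 95% interval 1.57 to 6.57, counting error only). Y428F cells gave 12 and 43 counts, a ratio of 3.74 (1.94 to 7.79). In the model of spread between libraries, the log2 fold change was 1.61 ± 0.56 in WT cells (adjusted p = 0.0809) and 1.86 ± 0.53 in Y428F cells (adjusted p = 0.0223). Only the latter passed, and it no longer did when vehicle library 2 or 3 or PTH library 2 or 3 of the Y428F line was left out (adjusted p between 0.0511 and 0.113). The difference in response was 0.26 ± 0.78 (95% interval -1.36 to 1.89), an interval too wide to place the lines relative to each other. With vehicle the Y428F line differed from WT by -0.02 ± 0.61 (95% interval -1.3 to 1.25), and with PTH by 0.24 ± 0.46 (-0.72 to 1.2).

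**Figure D2:**
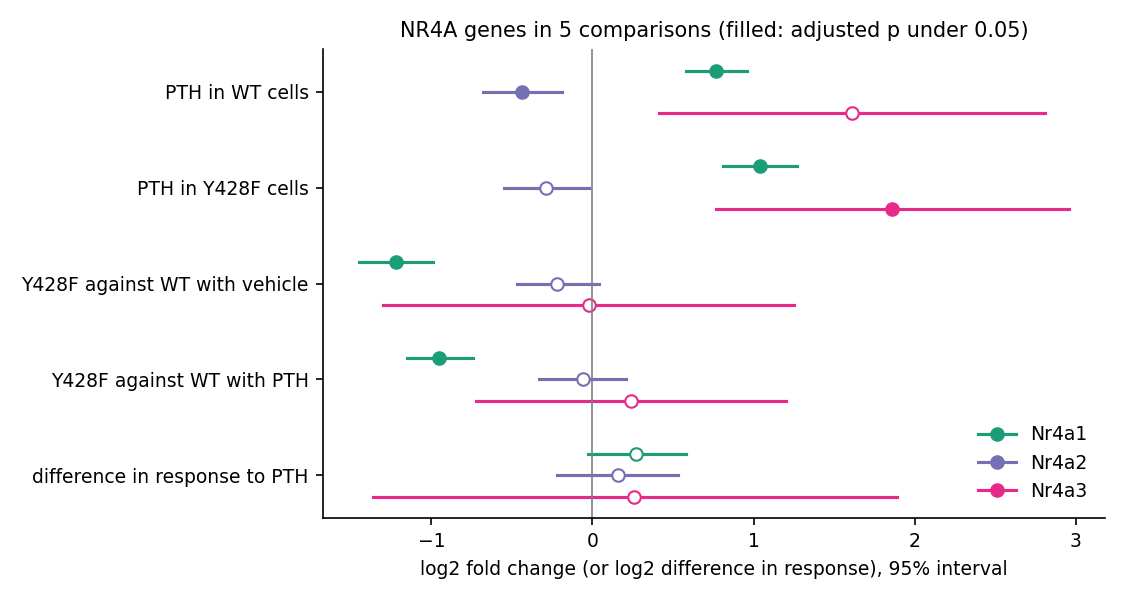
Log2 fold change, or log2 difference in response, of the 3 NR4A genes (x axis) in 5 comparisons (y axis), with 95% intervals from edgeR and filled points for an adjusted p under 0.05. *Nr4a1* was called in 4 comparisons, *Nr4a2* in WT cells with PTH and *Nr4a3* in Y428F cells with PTH, and no point was filled for the difference in response.

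Of the 3 members, 1 was higher and 1 lower with PTH in WT cells, beside 6.88% and 4.91% of all genes, and 2 were higher in Y428F cells, beside 6.61%. Between the lines 1 was lower in each state, beside 22.7% of all genes with vehicle and 23% with PTH. The balance of *Nr4a1* and *Nr4a2* counts was also read within single libraries, where the scaling between libraries cancels. A higher ratio follows from the rise of *Nr4a1* alone and does not show that *Nr4a2* fell. The ratio of *Nr4a1* to *Nr4a2* counts in WT cells was 1.32, 1.09 and 1.06 with vehicle and 2.82, 2.69 and 2.43 with PTH. In Y428F cells it was 0.535, 0.603 and 0.572 with vehicle and 1.80, 1.46 and 1.14 with PTH. Vehicle-treated Y428F cells were thus the only group with fewer *Nr4a1* than *Nr4a2* counts in every library, and PTH-treated WT cells lay above all other libraries. PTH-treated Y428F libraries reached into the WT vehicle range, with PTH library 3 between the WT vehicle libraries.

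**Figure D3:**
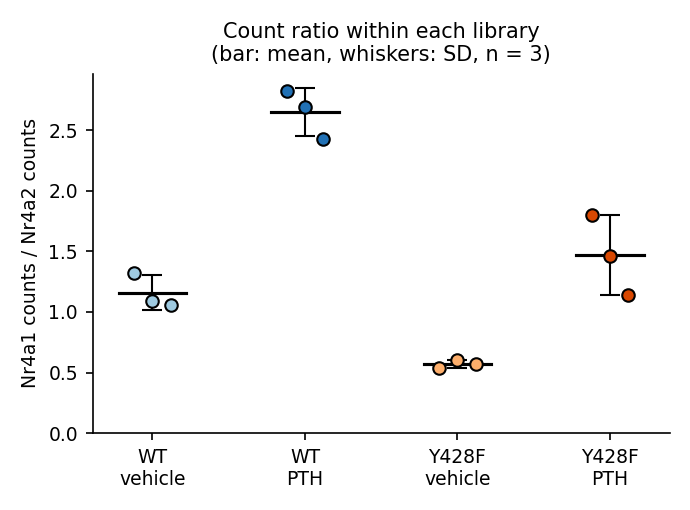
Ratio of *Nr4a1* to *Nr4a2* counts within each library (y axis, linear, from 0) by group (x axis), where each point is a library, bars are means and whiskers the SD of 3 libraries. The mean rose from 1.16 to 2.65 in WT cells and from 0.57 to 1.47 in Y428F cells with PTH.

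Levels between genes were compared per kilobase of exon, over all exons annotated in GENCODE vM39. The reads were counted on the basic genes of an earlier release, so these lengths may differ from those of the transcripts counted. On this scale *Nr4a1* was at 1.44 and 2.45 CPM per kilobase in WT cells with vehicle and PTH, and at 0.618 and 1.27 in Y428F cells. *Nr4a2* was at 1.67 and 1.23 in WT cells and at 1.44 and 1.18 in Y428F cells, and *Nr4a3* at 0.0362, 0.112, 0.0361 and 0.133 in the same order of groups. *Nr4a3* was the lowest member everywhere. The order of the other two with vehicle depended on the length used, because the annotated exons of *Nr4a1* add up to 10.9 kb whereas its canonical transcript is 2.55 kb long. Per kilobase of canonical transcript, a scale added after the data were seen, *Nr4a1* stood above *Nr4a2* in WT cells with vehicle (6.17 and 2.88), and the pair lay close in Y428F cells with vehicle (2.64 and 2.48). Reads of *Nr4a1* could also be shared with an overlapping noncoding gene, *Gm56721*, which had 56 counts over all 12 libraries. *Nr4a1* also overlaps the opposite-strand genes *Gm63176* and *Gm63180*, and *Nr4a3* overlaps *Gm68858* on its opposite strand. None of these opposite-strand genes has a row in the count matrix, so no reads were assigned to them there. The members share no run of 50 bases between their transcripts, so reads were not expected to be split among them.

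Each member was set beside the other genes of its chromosome. The 496 genes of chromosome 15 with at least 1 CPM had a median log2 difference of 0.21 between Y428F and WT cells with vehicle, opposite in sign to that of *Nr4a1*. The 26 such genes within 1 Mb of *Nr4a1* had a median of -0.08, with 9 higher and 10 lower, beside 22.4% and 22.7% of all tested genes. Its nearest neighbours were *Atg101*, an autophagy gene 23 kb away, with a log2 difference of 0.1 (adjusted p = 0.284), and *Tamalin*, a scaffold gene 35 kb away on the other side, with -0.41 (adjusted p = 0.0089). With PTH in WT cells, *Atg101* changed by 0.09 (adjusted p = 0.546) and *Tamalin* fell (log2 -0.49, adjusted p = 0.0253). With PTH in Y428F cells, *Atg101* rose, as *Nr4a1* did (log2 0.24, adjusted p = 0.0323), and *Tamalin* had a log2 fold change of -0.31 (adjusted p = 0.129). Gene dose was not measured, and its part in the line difference of *Nr4a1* was not tested.

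Chromosome 2, with 955 such genes, had a median line difference of -0.06 with vehicle, and *Nr4a2* had 1 expressed neighbour within 1 Mb, *Gpd2* (0.11, adjusted p = 0.175). Chromosome 4, with 735 genes, had a median of -0.07, and the 10 genes near *Nr4a3* a median of -0.08 with 3 higher and 4 lower. Over all tested genes the shares were 22.4% and 22.7%.

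**Figure D4:**
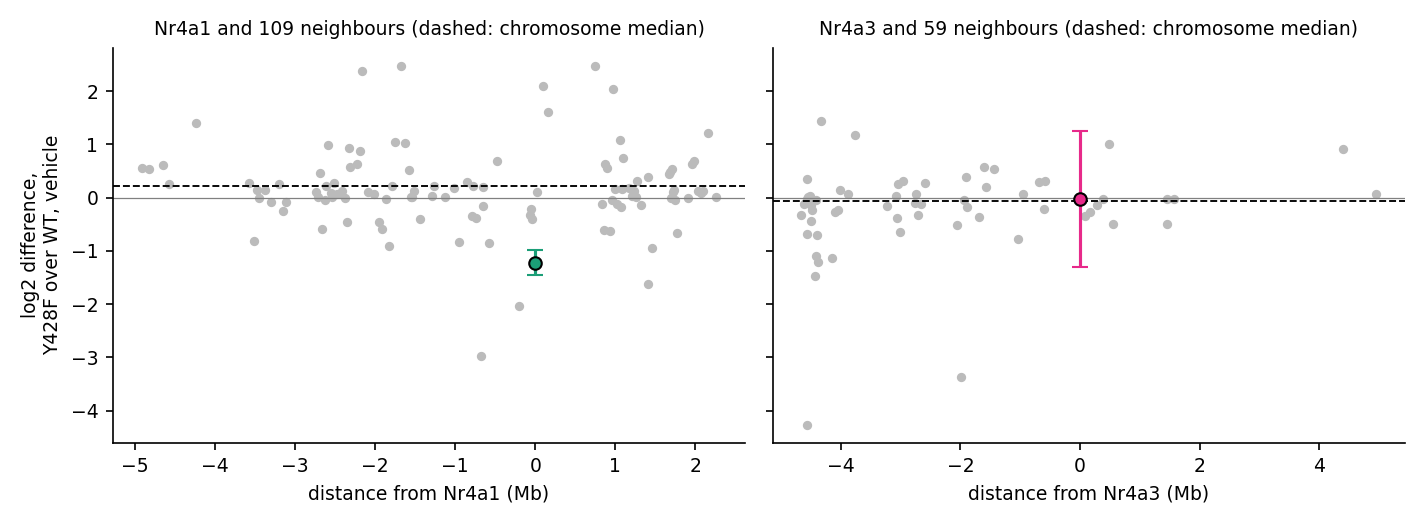
Log2 difference between Y428F and WT cells with vehicle (y axis) for genes averaging 1 CPM or more within 5 Mb of *Nr4a1* and *Nr4a3*, by distance in Mb (x axis). Grey points are neighbours, coloured points the member with its 95% interval, and dashed lines the chromosome medians of 0.21 and -0.07, the former far above *Nr4a1*.

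The genes whose levels followed each member most closely over the 12 libraries were found among 12038 genes that averaged 1 CPM or more, by Pearson's r of log2 CPM. These correlations describe 4 groups of libraries with shared treatments and carry no test. Closest to *Nr4a1* were *Rragc*, a small GTPase of the nutrient-sensing mTORC1 pathway (r = 0.99), *Hmox1*, the stress-inducible heme oxygenase (0.984), and *Mt1*, a metallothionein (0.983). *Hmox1* had 199 ± 0.821 and 286 ± 19.2 CPM in WT cells with vehicle and PTH, and 139 ± 10.2 and 202 ± 5.81 in Y428F cells, so that the highest and the lowest group were those of *Nr4a1*. *Rragc* had 149, 186, 107 and 148 CPM in that order of groups.

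Closest to *Nr4a2* were *Zmynd8*, a chromatin reader (r = 0.94), *Hdac7*, a class IIa histone deacetylase (0.923), and *Zmym6*, a zinc finger gene (0.921). *Zmynd8* fell with PTH in WT cells, from 136 ± 15.2 to 95.3 ± 8.26 CPM (log2 -0.50, adjusted p = 0.00173), and in Y428F cells, from 110 ± 1.74 to 87.4 ± 8.96 CPM (log2 -0.33, adjusted p = 0.0105). *Hdac7*, by contrast, spanned only 205 to 232 CPM over the group means and passed in neither PTH comparison (adjusted p = 0.35 and 0.0561). Closest to *Nr4a3* were *Schip1* (0.944), the heparan sulphate polymerase gene *Ext1* (0.937) and *Prr5l* (0.936), a set limited by the few *Nr4a3* counts. *Schip1* rose with PTH from 24.0 ± 0.937 to 39.4 ± 2.93 CPM in WT cells (adjusted p = 9.3e-05) and from 26.0 ± 2.3 to 38.0 ± 1.89 CPM in Y428F cells (adjusted p = 0.000105), with no line difference called. Between members, r was -0.23 for *Nr4a1* and *Nr4a2*, 0.53 for *Nr4a1* and *Nr4a3*, and -0.65 for *Nr4a2* and *Nr4a3*.

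Factors known to act upstream of the NR4A genes, namely CREB family members and their coactivators, MEF2 factors, class IIa deacetylases, calcineurin with NFAT, and SRF with its partners, were next examined. Of the 26 listed, 25 were tested in WT cells, where 5 rose with PTH and 1 fell, beside 6.88% and 4.91% of all genes, with a median log2 fold change of 0.073 against -0.015 over all genes. In Y428F cells 4 of 26 rose, beside 6.61% of all genes (median 0.016 against -0.007). *Srf*, which encodes serum response factor, rose in WT cells from 74.3 to 235 CPM (log2 1.67, adjusted p = 2.25e-08) and in Y428F cells from 78.1 to 182 CPM (log2 1.22, adjusted p = 2.49e-10). *Atf1*, a close relative of CREB, rose in both lines (log2 0.22, adjusted p = 0.0298, and 0.24, adjusted p = 0.00868), as did *Ppp3r1*, the regulatory subunit of calcineurin (0.33 and 0.19, adjusted p = 0.00347 and 0.021). In WT cells *Mef2a* rose from 153 to 186 CPM (adjusted p = 0.0124), *Hdac9* from 0.905 to 4.24 CPM (adjusted p = 7.42e-05) and *Hdac4* fell (log2 -0.34, adjusted p = 0.0394). *Creb1* itself stayed between 41.1 and 48.7 CPM over the group means and was not called with PTH in either line.

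Between the lines with vehicle, 13 of the 26 factors were lower in Y428F cells and 3 higher, beside 22.7% and 22.4% of all genes (median -0.263 against 0.012). *Mef2a* was at 94.3 CPM against 153 (log2 -0.70, adjusted p = 1.52e-08), *Hdac5* at 87.2 against 153 CPM (-0.82, adjusted p = 9.19e-10) and *Ppp3ca*, the calcineurin catalytic subunit, at 239 against 376 CPM (-0.65, adjusted p = 1.53e-07). *Srf*, in contrast, had 78.1 CPM with vehicle in Y428F cells and 74.3 in WT cells.

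Partners and cofactors of the NR4A proteins were called with PTH about as often as genes in general. Of 15 tested, of 16 listed, 1 rose and 1 fell in WT cells (median -0.019), where 11.8% of all genes were called. In Y428F cells 2 fell (median -0.058), where 12.4% of all genes were called. *Bcl2*, whose protein binds Nur77 at mitochondria, rose in WT cells from 28.6 to 36.1 CPM (log2 0.35, adjusted p = 0.00794). *Rxra*, an RXR gene, had 169 and 157 CPM in WT cells with vehicle and PTH (adjusted p = 0.432) and fell in Y428F cells from 94.3 to 76.7 CPM (adjusted p = 0.00933). Between the lines with vehicle, 5 of 15 were lower, beside 22.7% of all genes, among them *Rxra* (log2 -0.84, adjusted p = 4.58e-09) and *Rxrb* (-0.48, adjusted p = 2.38e-06), and 1 was higher, the coactivator *Ep300* (0.26, adjusted p = 0.016).

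Genes placed downstream of NR4A receptors in other tissues mostly had too few counts to test. Of 24 listed, 9 were tested in WT cells and 11 in Y428F cells, and by edgeR 0 were higher with PTH in either line, beside 6.88% and 6.61% of all genes, shares too small for so few genes to set a count of 0 apart (at an unadjusted p of 0.05, 0 in the WT line and 1 in the Y428F line). *Bcl2l11*, a pro-apoptotic gene, was the only one that fell in either line, beside 4.91% and 5.78% of all genes. It fell in both, from 46.5 to 37.5 CPM in WT cells (log2 -0.30, adjusted p = 0.0164) and from 25.2 to 16.6 CPM in Y428F cells (-0.60, adjusted p = 5.54e-05). *Spp1*, which encodes osteopontin and is a reported target in osteoblasts, had 768 and 714 CPM in WT cells with vehicle and PTH (adjusted p = 0.51) and 489 and 498 CPM in Y428F cells (adjusted p = 0.879). Between the lines with vehicle *Spp1* was lower in Y428F cells (log2 -0.65, adjusted p = 8.56e-08), whereas *Eno3*, a muscle enolase, was higher (0.64, adjusted p = 2.77e-09).

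The other nuclear receptors moved in both directions with PTH. Of 31 tested in WT cells, of 46 listed, 4 rose and 5 fell (median -0.058), beside 6.88% and 4.91% of all genes. Of 32 tested in the Y428F line, 5 rose and 5 fell (median 0.013), beside 6.61% and 5.78% of all genes. *Pparg*, the adipogenic receptor, rose in both lines, from 31.7 to 45.3 CPM in WT cells (log2 0.52, adjusted p = 0.00135) and from 39.9 to 65.0 CPM in Y428F cells (0.71, adjusted p = 9.62e-07). *Nr1d2*, a circadian repressor, rose by 0.34 and 0.48 on the log2 scale, and *Nr3c1*, the glucocorticoid receptor, by 0.29 in both. *Vdr*, the vitamin D receptor, fell in both (log2 -0.50, adjusted p = 0.0253, and -0.38, adjusted p = 0.0301). Of the 26 receptor genes drawn beside the family, those averaging 1 CPM or more, 0 had a log2 fold change above that of *Nr4a1* in either line.

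Between the lines with vehicle, 17 of 32 other receptors were lower in Y428F cells and 3 were higher, beside 22.7% and 22.4% of all genes, with a median of -0.314 against 0.012 over all genes. *Nr4a1* lay on the same side. *Rora* was at 6.5 CPM against 33.8 (log2 -2.38, adjusted p = 4.54e-13), *Nr2f1* at 14.5 against 27.0 (-0.90, adjusted p = 1.68e-07) and *Thra*, a thyroid hormone receptor, at 158 against 282 CPM (-0.83, adjusted p = 1.02e-10).

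Early response genes, the class to which the NR4A genes belong, included 8 that rose of 32 tested in WT cells and 15 of 33 in Y428F cells, beside the shares of 6.88% and 6.61% over all genes. Of the same genes 4 and 3 fell, beside 4.91% and 5.78%, and the medians were 0.154 and 0.276. *Dusp5*, an ERK phosphatase, rose by 1.21 and 1.31 on the log2 scale, *Maff*, a small MAF factor, by 0.85 and 1.60, and *Fosl1*, an AP-1 subunit, by 0.78 and 0.99. *Ccn1*, a matricellular gene and YAP target, rose from 217 to 455 CPM in the WT line and from 287 to 441 CPM in the other. Members of the class that fell included *Btg2*, an antiproliferative gene, from 20.2 to 9.26 CPM in WT cells (log2 -1.12, adjusted p = 4.71e-06) and from 17.6 to 7.98 CPM in Y428F cells (-1.15, adjusted p = 2.25e-07). *Fos*, the most studied of these genes, had group means between 1.00 and 1.49 CPM and was called in no comparison. *Egr1* was not called with PTH. With vehicle, *Egr1* had 7.29 CPM in the Y428F line against 17.4 CPM in WT (log2 -1.25, adjusted p = 9.14e-08), close in size to *Nr4a1*. The class was split between the lines with vehicle. Of 33 tested, the Y428F line had less of 11 and more of 8, beside 22.7% and 22.4% of all genes (median -0.184 against 0.012). *Ccn1*, *Dusp5* and *Maff* were among the 8.

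**Figure D5:**
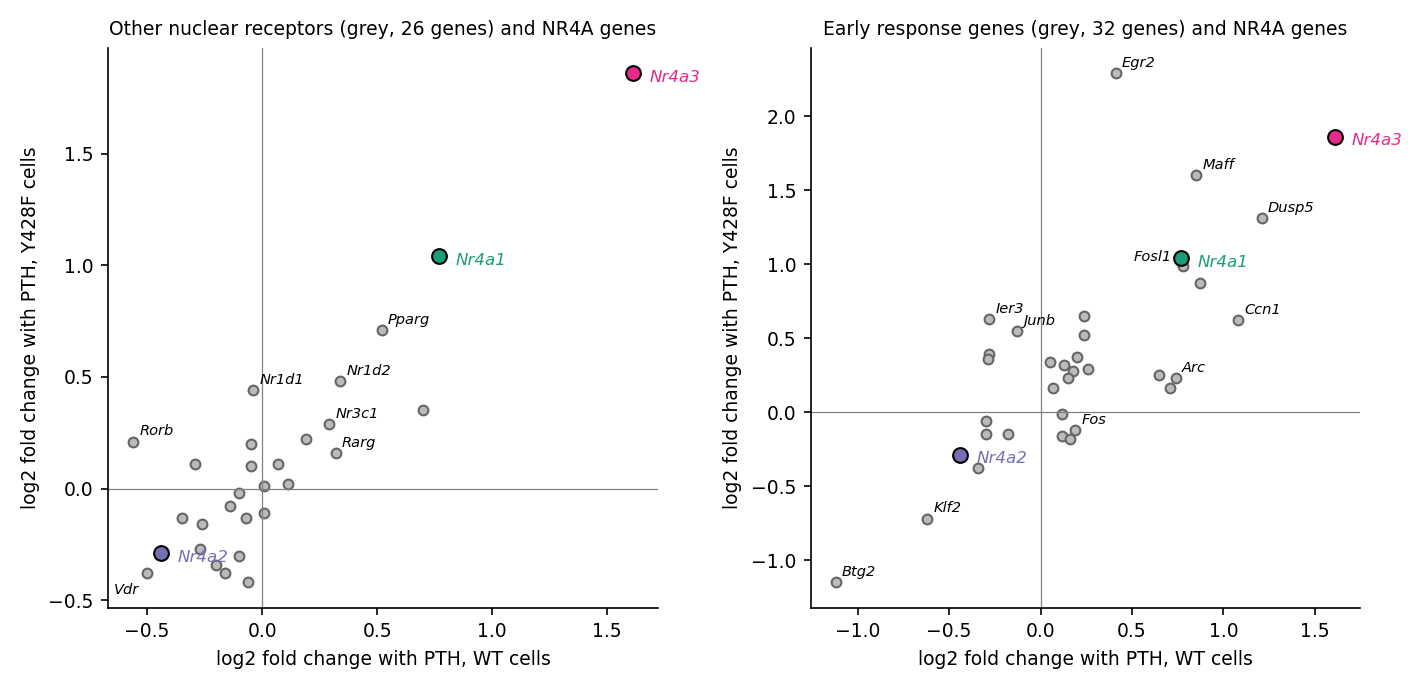
Response to PTH as a log2 fold change, in Y428F cells (y axis) and in WT cells (x axis), for 26 other nuclear receptors (left) and 32 early response genes (right) averaging 1 CPM or more in grey, and the NR4A genes in colour. *Nr4a1* at 0.77 and 1.04 lay above the drawn receptors on both axes, whereas among early response genes it lay beside *Fosl1* at 0.78 and 0.99.

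Among genes that respond to cAMP in PTH target cells, 3 of 12 tested rose in WT cells (median 0.206), beside 6.88% of all genes. In Y428F cells 4 of 14 rose and 1 fell (median 0.081), beside 6.61% and 5.78%. *Ptgs2*, which encodes the inducible cyclooxygenase, rose from 30.1 to 59.7 CPM in WT cells (log2 0.99, adjusted p = 0.000816) and from 24.0 to 59.1 CPM in Y428F cells (1.30, adjusted p = 1.55e-06). *Pde4d*, a cAMP phosphodiesterase, rose from 12.8 to 33.5 CPM and from 6.54 to 10.2 CPM. *Crem*, a CREB family gene, did not pass in either line, with 7.17 and 7.56 CPM in WT cells and 5.69 and 5.31 CPM in Y428F cells. *Sik1*, a salt-inducible kinase, fell in Y428F cells (log2 -0.35, adjusted p = 0.0131).

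The labelled cell type was checked against its markers. Of 10 stromal markers, 9 had at least 1 CPM, led by *Col1a2* with a mean of 10000 CPM, and *Thy1* was at 0 in every library. The summed stromal level was 27300 and 27900 CPM in WT cells with vehicle and PTH, and 18800 and 17200 CPM in Y428F cells, and 8 of 9 tested markers were lower in the Y428F line in each state, beside 22.7% of all genes with vehicle and 23% with PTH. Lists of markers of other cells summed to at most 9.94 CPM in a library, and for some lists the sum was higher in the Y428F line. With vehicle, the sums in WT and Y428F cells were 1.42 and 8.91 CPM for endothelial markers (most abundant *Cdh5*, the only one of 4 called), 0.624 and 3.66 CPM for epithelial markers (*Krt8* and *Cdh1*, both called, with *Epcam* at 0) and 1.65 and 3.56 CPM for haematopoietic and macrophage markers, where *Ptprc* was the only gene called. Adipocyte markers reached at most 0.349 CPM in a library, with *Adipoq* and *Cfd* at 0, and the osteocyte markers *Sost* and *Mepe* were at 0. The stromal sum, *Cdh5*, *Krt8* and *Ptprc* moved with the line, as *Nr4a1* did, *Cdh1* did so with vehicle (log2 2.80, adjusted p = 0.00133) but was not called with PTH (1.51, adjusted p = 0.0787), and their part in the line difference of *Nr4a1* was not tested.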

How the data were processed

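Bulk RNA-Seq libraries of W-20 cells were grouped by their titles. Per the methods and the labels, reads were mapped to GRCm39 by STAR 2.7.10b, using GENCODE basic genes, and summarized with RSEM, whose version is not given in the sources used here. The authors deposited RSEM expected counts per gene, not scaled for depth or length. All 36 NR4A values were whole numbers. Whether the libraries were stranded is not stated clearly, so reads from a gene on the opposite strand may have been counted to a member.

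Rounded counts were modelled with edgeR 4.0.16 under R 4.3.3 (TMM, quasi-likelihood test, Benjamini-Hochberg over all tested genes), after dropping genes whose counts summed to under 10. PTH in WT cells was fitted on the 6 WT libraries (15583 genes) and the rest on all 12 (17691 genes), and calls were made at an adjusted p of 0.05. SE is the log2 fold change over the square root of F. CPM used TMM factors of the 12 libraries. Exact intervals cover counting error only. Alternatives were DESeq2 1.42.0, its size factors, library totals, other filters, other sets of libraries, a replicate block and each library left out. Named genes were the 3 members, the 3 genes closest to each by r, and for each list and comparison up to 6 called genes with the largest change and at least 1 CPM, or abundant members of lists with few calls, and some genes outside this rule were named after their values were seen. Gene lists were written from general knowledge. Members and lists were chosen with earlier results of these data known. The fits were also tried on simulated data, a check whose result is not reported here. The values of some listed genes are not reported here.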

Additional observations from a re-analysis of the deposited data

Results flagged for a closer look

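The lines differed in their response to PTH, by the edgeR test of the difference itself at an adjusted p under 0.05, for 7 of the 144 tested genes of the lists set beside the family, none of them an NR4A gene. Over all genes 0.413% passed, or 73 of 17691, and 24 without Y428F PTH library 3. The log2 response was larger in Y428F than in WT cells for *Ier3* (0.91, adjusted p = 0.0169), *Egr2* (1.89, adjusted p = 0.0289), *Maff* (0.75, adjusted p = 0.00187) and *Junb* (0.69, adjusted p = 0.0215), all early response genes, and for the receptor gene *Rorb* (0.77, adjusted p = 0.0106). It was smaller in Y428F cells for *Srf* (-0.44, adjusted p = 0.0456) and *Pde4d* (-0.74, adjusted p = 0.0381). *Junb* had 74.4 ± 12.2 and 67.8 ± 6.48 CPM in WT cells with vehicle and PTH and 62.3 ± 3.36 and 91.5 ± 5 CPM in Y428F cells. *Rorb* fell in WT cells from 15.1 to 10.2 CPM and had 18.4 and 21.2 CPM in Y428F cells.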

How the results depend on the processing

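Of 250 alternative values for the members, 232 kept their direction and their side of the threshold. All alternatives of *Nr4a1* did. The adjusted p of *Nr4a2* with PTH in WT cells was lost in 5 of 6 fits with a library left out (log2 -0.52 to -0.36 over the 6), and that of *Nr4a3* with PTH in Y428F cells in 4 of 12 (1.52 to 2.29). All 4 left out a Y428F library, whereas fits without a WT library, which is not part of that comparison, gave 1.86 to 1.87. *Nr4a2* between lines with vehicle passed without WT vehicle library 1 (range -0.32 to -0.15, adjusted p = 0.0485 at its lowest). Directions turned for values near 0. With library totals, *Nr4a3* between lines with vehicle became 0.03 and *Nr4a2* between lines with PTH 0.01. With a library left out, the former ranged from -0.45 to 0.32 (0.16 without WT vehicle library 3, 0.32 without Y428F vehicle library 2) and the latter from -0.19 to 0.06 (0.06 without Y428F PTH library 1). *Nr4a3* between lines with PTH ranged from -0.04 to 0.43 (-0.04 without Y428F PTH library 2), and its difference in response from -0.09 to 0.68 (-0.09 without Y428F vehicle library 2 and -0.01 without Y428F PTH library 2). The causes were not tested. Counts of genes called with a library left out ranged from 905 to 2211 for PTH in WT cells (1837 with all), from 1435 to 2515 in Y428F cells (2192) and from 24 to 89 for the difference in response (73), which was 123 with DESeq2's Wald test and 216 with no filter. Per kilobase of canonical transcript, a length chosen after seeing the data, *Nr4a1* over *Nr4a2* was 2.16 and 4.95 in WT cells with vehicle and PTH and 1.07 and 2.74 in Y428F cells, in place of 0.87, 1.99, 0.429 and 1.1. With the replicate number as a replicate block, *Nr4a1*, *Nr4a2* and *Nr4a3* changed by 0.77, -0.43 and 1.61 with PTH in WT cells, and the block changed no call of a member. Same-numbered libraries did not deviate together (mean r = 0.0064 over 18 pairs, -0.11 to 0.185), and 3 of 12 libraries correlated best with their own number. *Nr4a3* gave no value with a filter of 10 counts in every library. It also gave none with DESeq2's Wald test for PTH in either line or for the difference in response. Its few counts limit every statement on it.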
